A study of Homo sapiens with 6 samples.

Results

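Genes of the mitotic spindle, the kinetochore and cytokinesis were examined in HGC-27 cells depleted of ACAT2. They were a list of 50 genes, chosen by symbol from the 58735 genes of the deposited expression table by a rule that uses no measured value, and were read in 8 roles, from the kinases that drive mitosis to the motors, scaffolds and condensins that carry it out. The values are FPKM, the number of sequenced fragments per kilobase of a gene's exons, scaled for library size. Of the 50 genes, 49 averaged 1 FPKM or more in the control or the knockdown libraries and were tested. PRC1, which bundles antiparallel microtubules of the central spindle, lay under this limit at 0.615, 0.603 and 0.325 FPKM in the control libraries and 0.513, 0.414 and 0.531 FPKM in the knockdown libraries. Of its exon bases, 58.4% belong also to other annotated genes, chiefly AC068831.7 on the same strand, which was listed between 1.52 and 2.00 FPKM. How the counting treated fragments on such shared bases is not stated.

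HGC-27 is an established line of undifferentiated human gastric carcinoma. The cells received the puromycin-resistance vector pSIH-H1-Puro carrying a hairpin RNA that targets ACAT2 (shACAT2), or its control (shNC), which the methods of the study describe as the vector without an insert, for 24 hours, and both groups were then selected with puromycin for 7 days. The 3 libraries of each group were numbered 1 to 3. ACAT2 is a thiolase that makes acetoacetyl-CoA from acetyl-CoA, and its knockdown was compared with the control to find genes that respond to its loss. The labels call both groups wild type, and which of the study's hairpins the shACAT2 cells carried is not given in them. Nothing states that the 3 libraries of a group were separate cultures, so the errors below cover the spread between libraries, which may be technical.

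In mitosis, kinetochores built on the centromeres attach chromosomes to spindle microtubules, and the spindle checkpoint holds back the anaphase promoting complex until every chromosome is attached. The chromosomal passenger complex corrects faulty attachments and later moves to the cell middle, where motors and scaffold proteins build the cleavage furrow. Most of these genes are transcribed late in the cell cycle, from promoters with CCAAT boxes and a cell cycle genes homology region, read by the DREAM complex and by B-MYB with FOXM1. In cultures of dividing cells, their summed RNA therefore follows the share of cells in G2 and mitosis. In bulk RNA, fewer cells at that stage and less RNA in each such cell cannot be told apart.

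The promoter windows of 4 members are shown, from 250 bases before to 50 bases after the RefSeq gene start (GRCh38.p14, plus strand of the chromosome, on which all 4 genes lie). CKS1B was the member past the test, CKS2 is its paralogue, and CDC20 and CENPF were high and low in the number 1 libraries described further on. Capitals mark CCAAT and the homology region letters TTTGAA and TTTAAA on either strand, so that ATTGG and TTCAAA are matches on the opposite strand.

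CKS1B (chr1:154974431-154974730): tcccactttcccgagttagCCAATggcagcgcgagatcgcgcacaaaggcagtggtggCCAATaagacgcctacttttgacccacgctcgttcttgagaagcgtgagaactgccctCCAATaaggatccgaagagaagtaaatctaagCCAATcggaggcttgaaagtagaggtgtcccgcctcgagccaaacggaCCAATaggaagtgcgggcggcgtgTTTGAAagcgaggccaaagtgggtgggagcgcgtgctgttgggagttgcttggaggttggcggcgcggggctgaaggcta

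CKS2 (chr9:89310945-89311244): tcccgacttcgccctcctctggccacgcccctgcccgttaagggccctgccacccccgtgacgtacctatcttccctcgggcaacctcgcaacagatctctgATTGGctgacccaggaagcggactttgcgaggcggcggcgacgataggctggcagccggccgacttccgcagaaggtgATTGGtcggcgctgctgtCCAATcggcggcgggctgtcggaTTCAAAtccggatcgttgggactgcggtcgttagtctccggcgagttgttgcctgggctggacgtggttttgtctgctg

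CDC20 (chr1:43358731-43359030): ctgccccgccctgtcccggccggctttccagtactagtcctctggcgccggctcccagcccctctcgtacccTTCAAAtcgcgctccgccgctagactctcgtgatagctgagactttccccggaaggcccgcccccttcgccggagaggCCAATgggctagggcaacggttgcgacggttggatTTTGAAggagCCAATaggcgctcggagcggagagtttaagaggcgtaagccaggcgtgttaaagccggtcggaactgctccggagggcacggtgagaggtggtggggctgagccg

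CENPF (chr1:214602945-214603244): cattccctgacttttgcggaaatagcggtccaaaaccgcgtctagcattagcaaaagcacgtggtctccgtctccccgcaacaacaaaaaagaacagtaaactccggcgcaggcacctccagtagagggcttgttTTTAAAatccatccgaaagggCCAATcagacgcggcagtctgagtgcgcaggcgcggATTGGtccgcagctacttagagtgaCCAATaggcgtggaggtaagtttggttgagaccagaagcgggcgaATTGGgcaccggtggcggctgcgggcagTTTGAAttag

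In CKS1B, TTTGAA began 30 bases before the gene start and the nearest CCAAT began 54 bases before it. In CKS2, TTCAAA began 29 bases before the start, with a CCAAT 52 bases before it, so that the paralogues had the pair of matches at nearly the same place. In CDC20, the match nearest to the start was a CCAAT 55 bases before it, just downstream of a TTTGAA that began 65 bases before it. CENPF had a CCAAT 33 bases before the start and its nearest homology letters downstream of the start.

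RefSeq promoter windows were matched by symbol for 42 of the 50 members. TTTGAA or TTTAAA was found on either strand in 39 of the 42 windows (92.9%), against 19.3% of the 14896 windows of the same length of protein-coding genes. The windows without these letters were those of BUB1, AURKB and SPC24. CCAAT was found in 33 of the 42 (78.6%), against 36.4%, and both kinds of letters in 30 (71.4%), against 7.83%. From 60 bases before the gene start to the end of the window, the homology letters were found in 33 of the 42 (78.6%), against 5.94%. In 29 members a CCAAT lay upstream of homology letters, at a median distance of 33 bases. The letters TTCCCGC or TTGGCGC, which E2F factors can read, were found in 7 of the 42 (16.7%), against 12.4%. In 6 members some matches overlapped each other. These matches are letters in a window and do not show that a factor binds there.

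**Figure D1:**
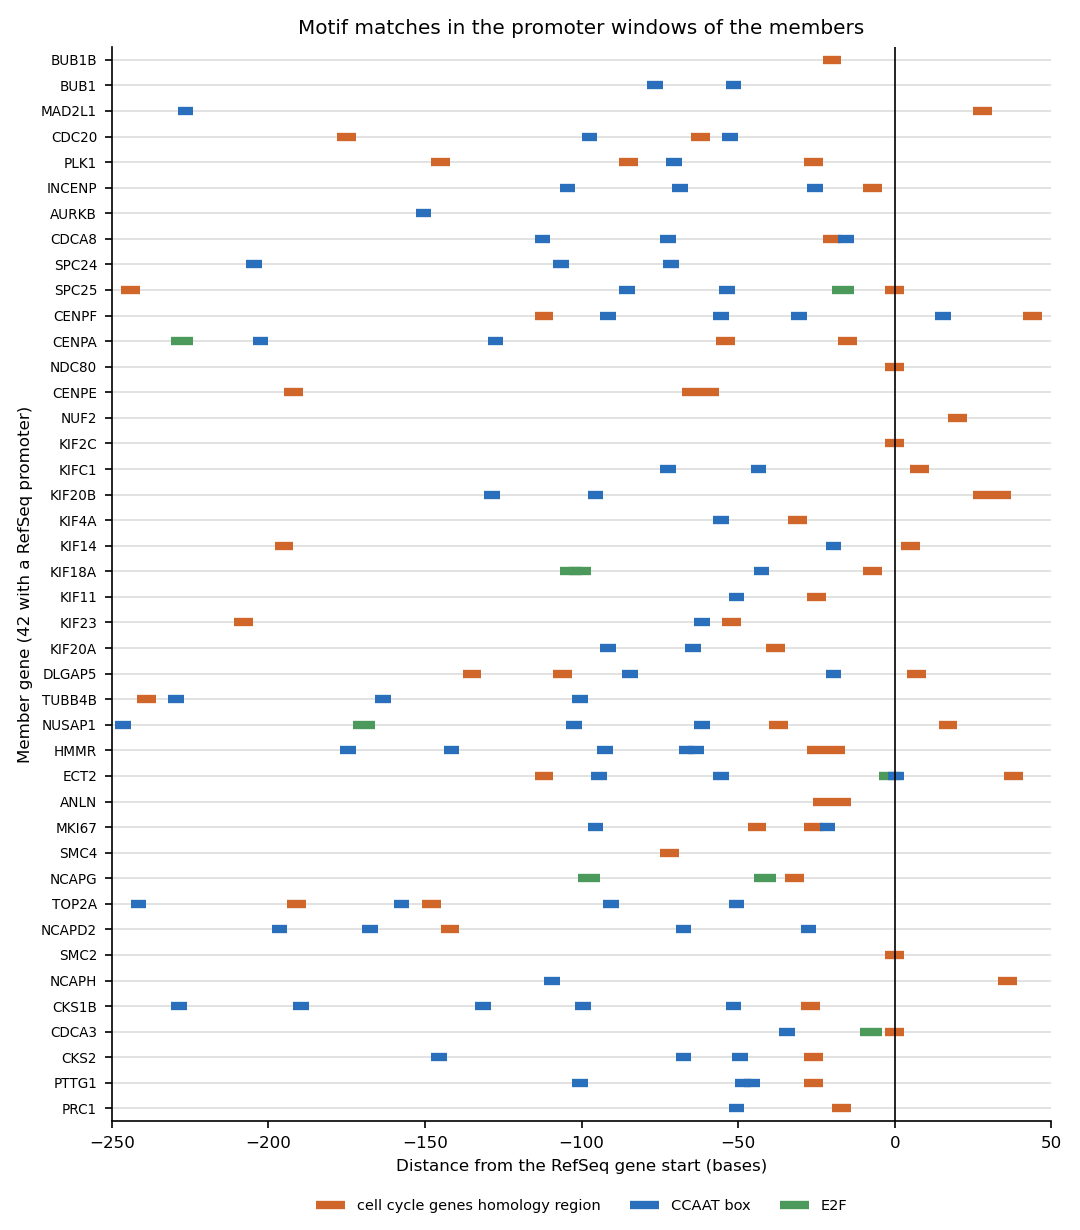
Matches to the homology region letters (orange), CCAAT (blue) and the E2F letters (green) in the promoter windows of 42 members, by distance in bases from the RefSeq gene start. From 60 bases before the start onwards, 33 of the 42 windows hold an orange mark, and in 29 windows a blue mark lies upstream of an orange one.

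ACAT2, the targeted gene, was listed at 14.2, 11.7 and 12.7 FPKM in shNC-1, shNC-2 and shNC-3, and at 6.19, 5.46 and 6.05 FPKM in the shACAT2 libraries. Its log2 fold change was −1.01 (SE 0.103, limma adjusted p = 0.00594), and the adjusted p was 0.0512 without shNC-3. ACAT2 shares 52.3% of its exon bases with genes on the opposite strand, and no strand setting is stated for the counting. The libraries held between 14086416 and 16067486 fragments on genes. shACAT2-3 had at least 1 fragment on 36466 genes, against 25337 to 27196 in the other libraries, and it alone had values above 0 for all 12 markers of other cell types examined. Summed over these 12 markers, the level was 8.22 FPKM in shNC-1 and between 2.19 and 3.76 FPKM in the other libraries, and HBA1 (1.87 to 7.67 FPKM) made up most of it. Although labelled as stomach, the cells had almost no RNA of epithelial markers, with EPCAM, KRT18 and KRT19 at or below 0.212 FPKM and KRT8 at or below 0.785 FPKM, while VIM was listed between 246 and 461 FPKM.

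Of the 49 members tested, CKS1B alone passed an adjusted p of 0.05 over the 13832 genes tested, and it was lower in shACAT2 cells. With limma, 1 member was lower against a background of 1.81% of all genes tested, and 0 were higher against a background of 3.30%. At an unadjusted p below 0.05, 4 members were higher, against 12.8% of all genes tested, and 3 lower, against 10.7%. With limma-voom on the recovered fragments, 0 were higher, against 4.24%, and 1 lower, against 4.19%. The members' log2 fold changes ran from −1.17 to 0.45, with a median of 0.074, and 31 of the 49 were above 0. The median over all genes tested was 0.016. Of all genes called, 64.6% were higher with limma and 50.3% with limma-voom.

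CKS1B encodes a small protein that binds cyclin-dependent kinases and helps the SCF-SKP2 ligase recognise p27. The gene spans bases 154974653 to 154979249 of chromosome 1 (GRCh38). Its level was 62.6, 51.4 and 54.0 FPKM in shNC-1, shNC-2 and shNC-3 and 28.2, 21.7 and 23.4 FPKM in shACAT2-1, shACAT2-2 and shACAT2-3, from 820 to 2239 fragments per library. Every knockdown library lay far below every control library. The mean fell from 56.0 ± 5.84 (SD, n = 3) to 24.4 ± 3.36 FPKM (SD, n = 3), and the log2 fold change was −1.17 (SE 0.136, limma adjusted p = 0.00841). The adjusted p rose to 0.0583 when shNC-3 was left out and to 0.0505 after averaging it with shNC-2, and the log2 fold change stayed between −1.27 and −1.09 with each library left out in turn. CKS1B has near-identical pseudogene copies, of which CKS1BP3 had the highest level, at 11.0, 10.2 and 9.54 FPKM in shNC and 7.78, 4.82 and 2.53 FPKM in shACAT2 libraries, from 9 to 40 fragments. Fragments of the copies may have been exchanged with CKS1B in the alignment, which was not tested.

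**Figure D2:**
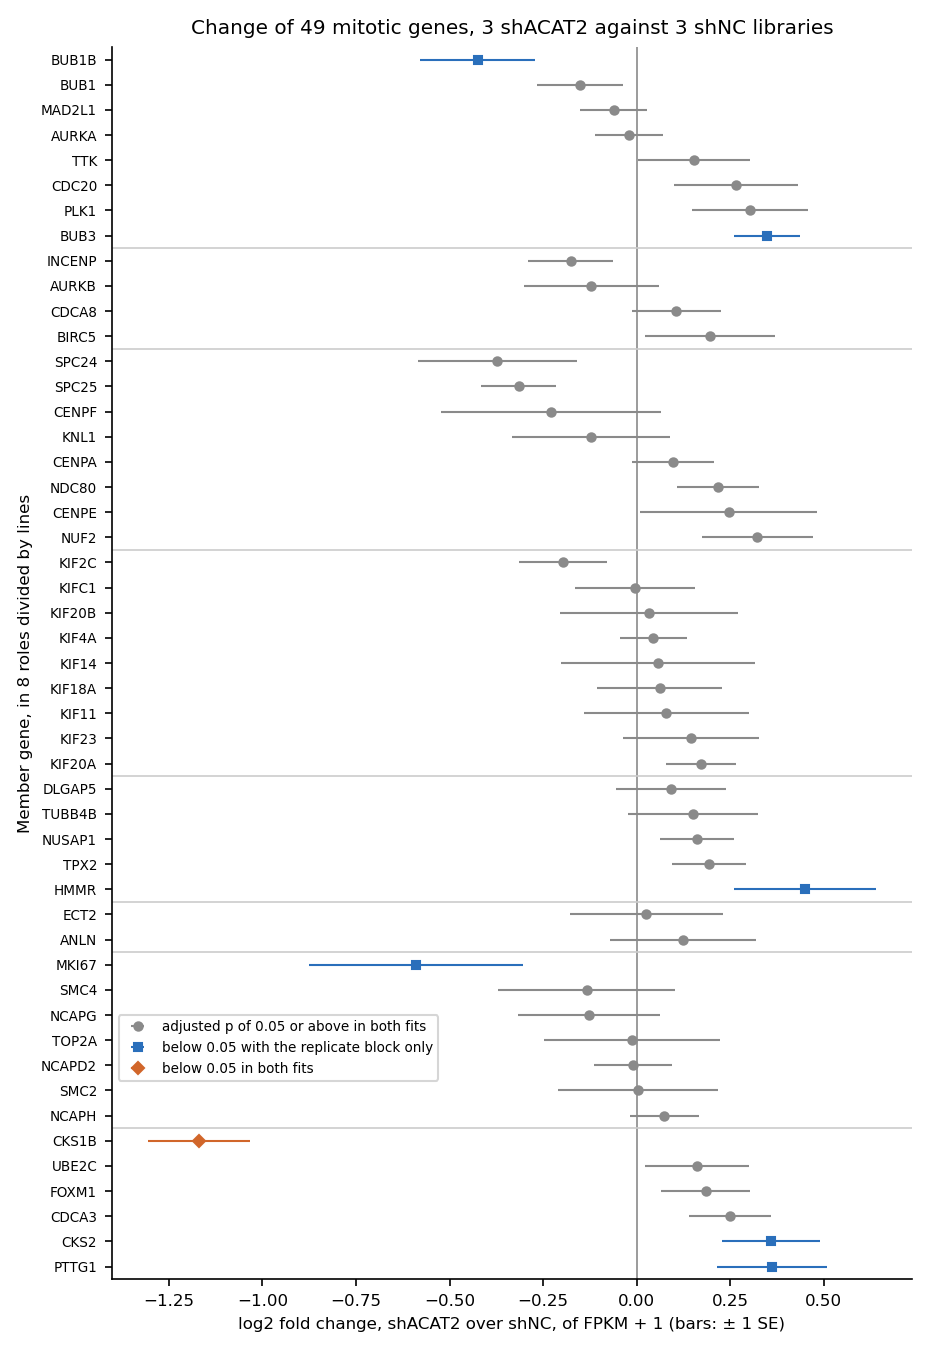
Log2 fold change of the 49 members tested, shACAT2 over shNC, on the log2(FPKM + 1) scale with bars of ± 1 SE from limma, in 8 roles divided by lines. CKS1B (orange diamond, −1.17) stands apart from the other members, which lie between −0.59 and 0.45, and blue squares mark members past an adjusted p of 0.05 only in the fit with the replicate block.

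The remaining cell cycle regulators of the same role had positive log2 fold changes. CKS2, the paralogue of CKS1B, was listed at 211, 177 and 186 FPKM in the shNC libraries and at 278, 223 and 238 FPKM in the shACAT2 libraries. All 3 knockdown values lay above the 3 control values, opposite to CKS1B, and the log2 fold change was 0.36 (SE 0.132, limma adjusted p = 0.163). PTTG1 (securin, the inhibitor of separase) had 42.1, 35.5 and 35.8 FPKM in shNC and 58.1, 42.4 and 46.9 FPKM in shACAT2 libraries, a log2 fold change of 0.36 (SE 0.146, adjusted p = 0.196). UBE2C (an E2 enzyme of the anaphase promoting complex), FOXM1 (a transcription factor of late cell cycle genes) and CDCA3 had log2 fold changes of 0.16, 0.18 and 0.25, with adjusted p from 0.226 to 0.535.

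Among the 8 mitotic kinases and checkpoint genes, log2 fold changes ran from −0.43 to 0.35. None passed the test without the block with limma, against 5.10% of all genes tested, or with limma-voom, against 8.44%. At an unadjusted p below 0.05 there were 2 (25%, against 23.5% of all genes tested). CDC20, which activates the anaphase promoting complex, was the most abundant of them. It was listed at 203, 169 and 173 FPKM in shNC and at 268, 207 and 185 FPKM in shACAT2 libraries, so that the groups overlapped (log2 fold change 0.26, SE 0.165, adjusted p = 0.381). BUB3, which carries the checkpoint kinase BUB1 to kinetochores, was the member closest to the threshold after CKS1B. Its level was 17.2, 16.5 and 17.2 FPKM in shNC and 22.4, 20.9 and 22.2 FPKM in shACAT2 libraries, with no overlap (log2 fold change 0.35, SE 0.0889, adjusted p = 0.0734). BUB1B, a subunit of the mitotic checkpoint complex, had the lowest log2 fold change of the role, at −0.43 (SE 0.154, adjusted p = 0.160). Its shNC libraries read 22.8, 28.2 and 28.6 FPKM and its shACAT2 libraries 16.5, 23.3 and 19.0 FPKM. For PLK1, a kinase needed for bipolar spindles, the log2 fold change was 0.30 (SE 0.155, adjusted p = 0.292). The other 4, AURKA, BUB1, TTK and MAD2L1, lay between −0.15 and 0.15.

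The 4 genes of the chromosomal passenger complex had log2 fold changes from −0.18 to 0.20. CDCA8 (borealin) had the highest mean level, with 64.2, 56.9 and 54.9 FPKM in shNC and 68.6, 57.6 and 63.4 FPKM in shACAT2 libraries (log2 fold change 0.11, SE 0.118, adjusted p = 0.638). For the kinase subunit AURKB, the values were 60.3, 45.9 and 51.1 FPKM in shNC and 61.0, 44.0 and 40.7 FPKM in shACAT2 libraries (log2 fold change −0.12, SE 0.181, adjusted p = 0.737). BIRC5 (survivin) read 54.3, 45.7 and 45.2 FPKM in shNC and 70.6, 51.4 and 46.9 FPKM in shACAT2 libraries (log2 fold change 0.20, SE 0.173, adjusted p = 0.545). In AURKB and BIRC5, the 2 number 1 libraries were the highest of their groups and the groups overlapped. INCENP, the scaffold of the complex, was lower in every shACAT2 library than in any shNC library, by a log2 fold change of −0.18 (adjusted p = 0.399).

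Of the 8 centromere and outer kinetochore genes, none passed the test with limma, and NUF2 (0.32) and SPC24 (−0.37) marked the ends of their range. At an unadjusted p below 0.05, 1 of the 8 was lower, namely SPC25 (12.5%, against 10.7% of all genes tested), and limma-voom called 0. CENPF, a large kinetochore and nuclear matrix protein, was the most abundant per length, with 22.9, 33.3 and 33.4 FPKM in shNC and 15.5, 31.7 and 31.5 FPKM in shACAT2 libraries. In both groups the number 1 library was far below the others, and the log2 fold change was −0.23 (SE 0.294, adjusted p = 0.691). SPC24 and SPC25 form one half-complex of the NDC80 complex, and NDC80 and NUF2 the other. SPC24 was listed at 34.0, 27.7 and 28.0 FPKM in shNC and at 30.3, 23.2 and 16.7 FPKM in shACAT2 libraries (log2 fold change −0.37, SE 0.212, adjusted p = 0.341). SPC25 had a log2 fold change of −0.32 (adjusted p = 0.125) with no overlap between groups, while NDC80 had 0.22 (adjusted p = 0.290), also with no overlap. The 4 subunits of this complex thus had values of both signs, and none of the differences passed the test.

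The 9 kinesin motors had log2 fold changes from −0.20 to 0.17. KIF20A, which brings the passenger complex to the central spindle, was the most abundant. It read 41.9, 40.1 and 39.4 FPKM in shNC and 47.1, 44.7 and 45.4 FPKM in shACAT2 libraries (log2 fold change 0.17, SE 0.0932, adjusted p = 0.315), with every shACAT2 value above every shNC value. KIF14, a motor of the cleavage furrow and midbody, was listed at 8.09, 13.0 and 12.2 FPKM in shNC and at 7.73, 14.9 and 12.7 FPKM in shACAT2 libraries. The number 1 libraries of both groups were again apart from the rest, and the log2 fold change was 0.057 (SE 0.259, adjusted p = 0.918).

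TUBB4B, a beta-tubulin, was the most abundant member of all, at 291, 239 and 234 FPKM in shNC and 349, 268 and 238 FPKM in shACAT2 libraries (log2 fold change 0.15, SE 0.174, adjusted p = 0.657). The other genes of spindle microtubules and their partners that were tested also had positive log2 fold changes. HMMR, which helps to focus spindle poles, had the highest of all members, 0.45 (SE 0.189, adjusted p = 0.212), from 6.46, 9.40 and 9.74 FPKM in shNC and 9.40, 13.1 and 13.4 FPKM in shACAT2 libraries. The groups overlapped, with shACAT2-1 at the level of shNC-2 and below shNC-3. NUSAP1 shares 62.2% of its exon bases with AC087721.2 on the same strand, so its level of 3.48 to 4.79 FPKM is uncertain.

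ANLN and ECT2 organise the contractile ring. ANLN (anillin) was listed at 26.7, 36.4 and 37.1 FPKM in shNC and at 28.1, 41.0 and 40.6 FPKM in shACAT2 libraries (log2 fold change 0.12, SE 0.195, adjusted p = 0.753). For ECT2, which activates RHOA at the cell equator, the log2 fold change was 0.026 (adjusted p = 0.953).

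The genes of condensin and chromosome structure included the member with the second lowest log2 fold change. MKI67 encodes Ki-67, the proliferation antigen that coats mitotic chromosomes. It was listed at 28.99, 41.4 and 41.1 FPKM in shNC-1, shNC-2 and shNC-3 and at 15.2, 32.6 and 27.8 FPKM in shACAT2-1, shACAT2-2 and shACAT2-3. Each shACAT2 library was below the shNC library of the same number, but shNC-1 lay among the shACAT2 values, and the log2 fold change was −0.59 (SE 0.286, adjusted p = 0.270). It was −0.80 without shACAT2-2 and −0.28 without shACAT2-1. TOP2A, the topoisomerase that untangles sister chromatids, had 69.0, 98.3 and 101 FPKM in shNC and 63.9, 108 and 96.5 FPKM in shACAT2 libraries (log2 fold change −0.012, SE 0.235, adjusted p = 0.982). SMC4, a core subunit of condensin, read 13.3, 18.5 and 18.1 FPKM in shNC and 10.2, 18.3 and 17.7 FPKM in shACAT2 libraries (log2 fold change −0.13, SE 0.236, adjusted p = 0.780). SMC4 shares 25.6% of its exon bases with genes on the opposite strand, and the strand setting of the counting is not stated. SMC2, NCAPD2, NCAPG and NCAPH lay between −0.13 and 0.074.

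**Figure D3:**
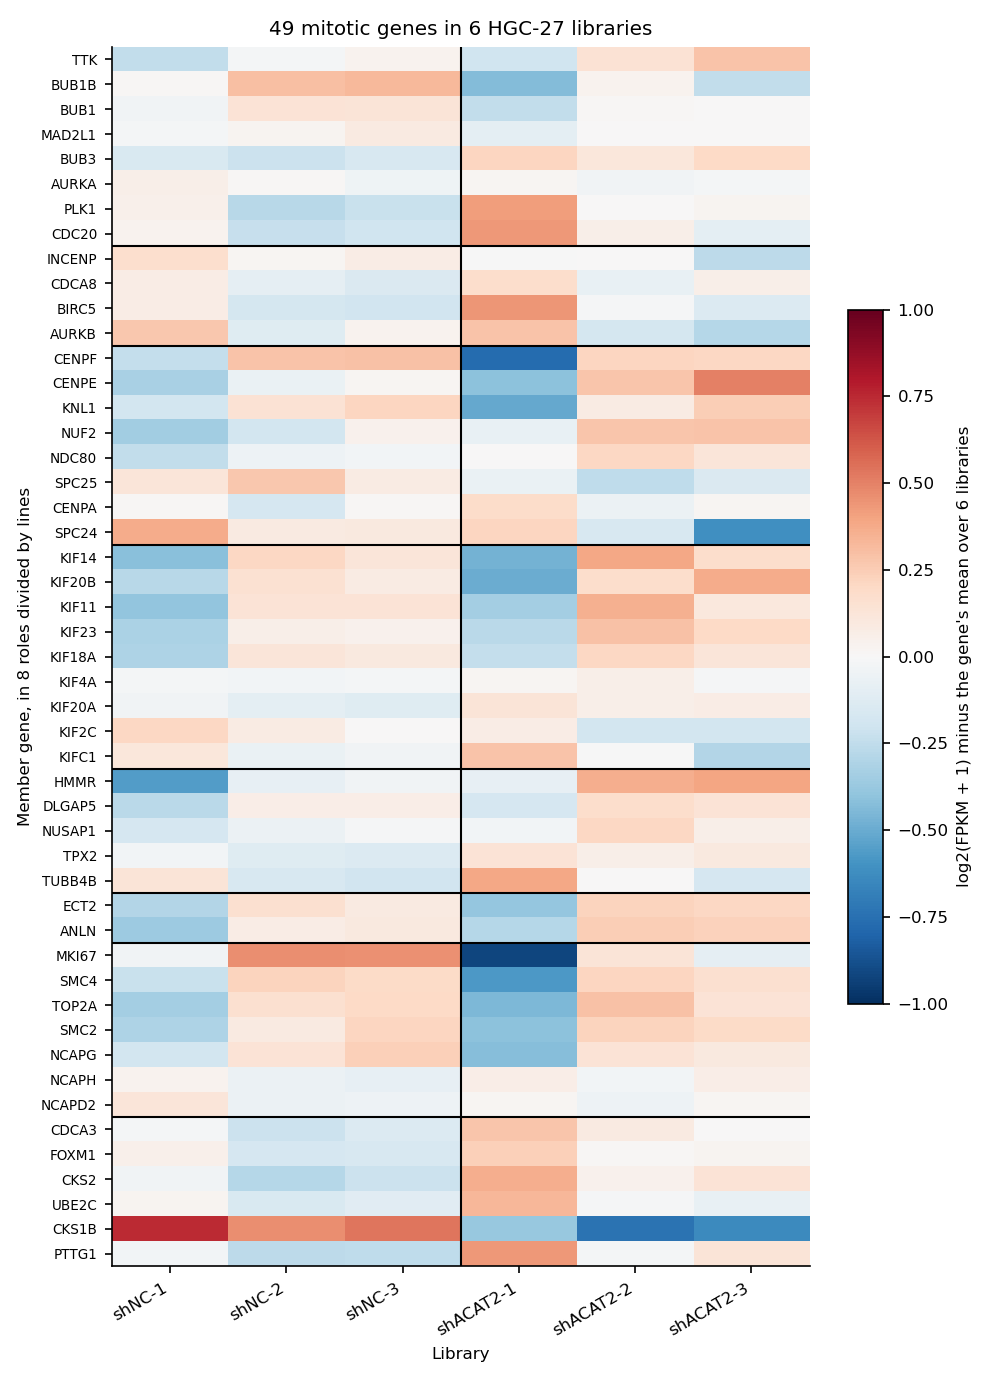
Level of the 49 members tested in the 6 libraries, as log2(FPKM + 1) minus the gene's mean over the libraries (colour, from −1 in blue to 1 in red), with the 8 roles divided by lines. CENPF, KIF14, TOP2A and ANLN are blue in both shNC-1 and shACAT2-1, and CKS1B is red in the 3 shNC and blue in the 3 shACAT2 libraries.

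The groups overlapped for most members. In 8 members, TPX2, KIF20A, KIF4A, BUB3, NDC80, CDCA3, PTTG1 and CKS2, all 3 shACAT2 values lay above the 3 shNC values, against a background of 16.2% of all genes tested. In 3, CKS1B, INCENP and SPC25, they lay below, against 14.5%. Together these were 22.4% of the members and 30.7% of all genes tested. The genes of this count were named after their values were seen.

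The number 1 libraries departed from the others in both groups, by more than numbers 2 and 3 differed from each other. It was measured as log2(FPKM + 1) in the number 1 library minus the mean of numbers 2 and 3 of its group. In shNC it ran from −0.58 to 0.31 over the 49 members and in shACAT2 from −0.98 to 0.60. By contrast, the difference between numbers 2 and 3 had an SD over members of 0.069 in shNC and 0.14 in shACAT2, against 0.29 and 0.45 for the departure. Over all genes tested, these SDs were 0.27 and 0.37 for numbers 2 and 3, and 0.30 and 0.43 for the departure. The SD of the departure was thus much the same in the members and in all genes. The SD between numbers 2 and 3 was smaller in the members, so the departure exceeded it by more in the members than in all genes. Number 1 lay outside the range of the other 2 libraries for 47 of the 49 members in shNC and for 46 in shACAT2, against 85.2% and 84.2% of all genes tested.

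The departure was alike in both groups. In 24 members number 1 was lower in both groups and in 23 it was higher in both, with SPC25 and KIF4A as the other two. The sign was thus the same in 95.9% of the members, against 84.8% of other mitotic genes and 78.3% of all genes tested. Of the 13832 genes tested, number 1 was lower in both groups for 4190 and higher in both for 6639. Pearson's r between the departures of the 2 groups was 0.95 across the 49 members, against 0.90 across the 99 other mitotic genes tested, 0.82 across 30 DNA replication genes and 0.44 across all genes tested. Genes are not independent replicates, and all points share the same 6 libraries. Regardless of sign, the departure was larger in shACAT2 than in shNC for 39 members, or 79.6%, against 69.9% of all genes tested. The difference between the groups in this departure was not tested.

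**Figure D4:**
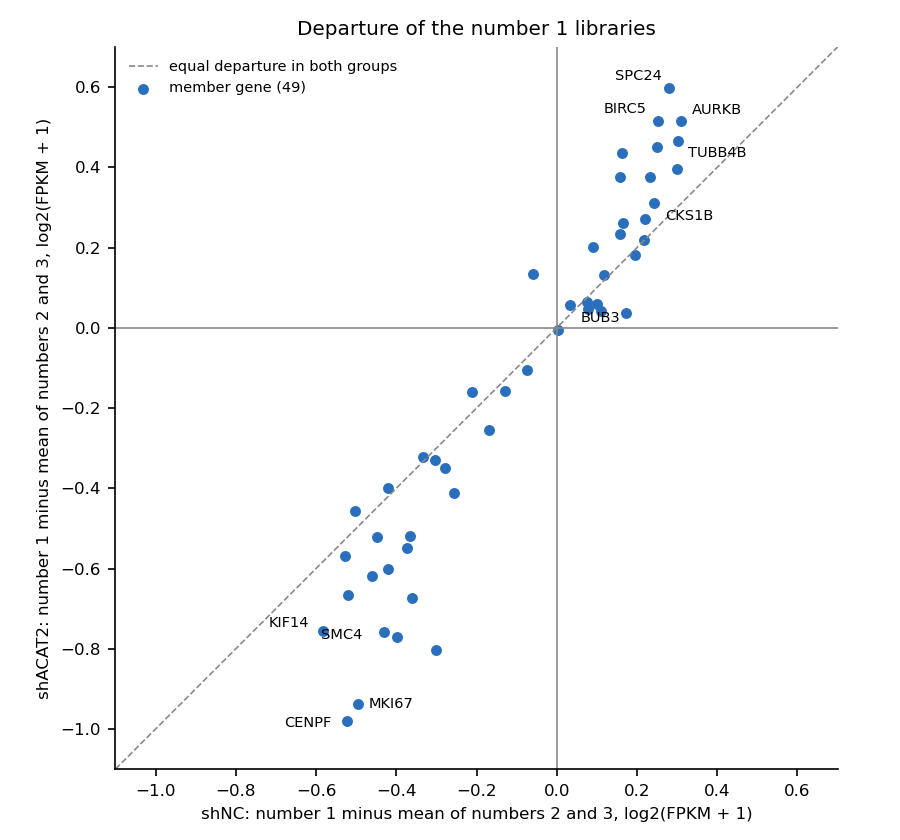
Departure of the number 1 library, log2(FPKM + 1) minus the mean of numbers 2 and 3, in shNC (horizontal) and shACAT2 (vertical) for the 49 members tested, with the dashed line at equal departure. The points run from CENPF and MKI67 at the lower left to SPC24 and AURKB at the upper right, and the lower ones lie mostly below the line.

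CENPF, MKI67, KIF14 and SMC4 had the lowest mean departures over both groups. For CENPF, the departure was −0.52 in shNC and −0.98 in shACAT2, so that number 1 held 0.686 and 0.491 times the mean level of the other 2. MKI67 followed with −0.50 and −0.94, KIF14 with −0.58 and −0.76, and SMC4 with −0.43 and −0.76. TOP2A, at −0.52 and −0.67, and ANLN, at −0.45 and −0.52, had the same sign in both groups. In these 6 genes, shNC-1 and shACAT2-1 were the lowest 2 of the 6 libraries, except for MKI67, where shACAT2-3 lay below shNC-1.

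SPC24, AURKB, BIRC5 and TUBB4B had the highest mean departures. SPC24 departed by 0.28 in shNC and 0.60 in shACAT2, AURKB by 0.31 and 0.52, BIRC5 by 0.25 and 0.51, and TUBB4B by 0.30 and 0.47. For AURKB, number 1 held 1.24 and 1.44 times the mean of the other 2. CDC20 departed by 0.25 and 0.45, CKS1B by 0.24 and 0.31, CKS2 by 0.22 and 0.27, and CDCA8 by 0.20 and 0.18. KIF20A, at 0.075 and 0.063, hardly departed.

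By role, number 1 was higher in both groups for all 4 passenger complex genes and all 6 cell cycle regulators. It was lower in both for 5 of 7 genes of condensin and chromosome structure, 5 of 9 kinesins, 5 of 8 centromere and kinetochore genes and both cytokinesis scaffolds. The median departure of the condensin and chromosome structure genes was −0.43 in shNC and −0.62 in shACAT2, while that of the passenger complex was 0.22 and 0.35. The median over all 49 members was −0.060 in shNC and −0.0043 in shACAT2, against 0.070 and 0.082 over all genes tested. The medians of these roles thus lay on either side of the medians of the members and of all genes. These roles also differed in base composition and length. The median GC content of the longest transcripts was 39.1% for condensin and chromosome structure and 53.9% for the passenger complex. Their median exon lengths were 6468 and 3142 bases. Whether the roles differ in departure beyond base composition and length was not tested.

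Base composition and length moved with the departure. The GC content of the longest transcript of each member ran from 34.2% to 59.6%. All 15 members under 40% GC were lower in number 1 of both groups, with medians of −0.42 in shNC and −0.60 in shACAT2, and all 14 members with at least 50% GC were higher, with medians of 0.21 and 0.39. All genes tested showed the same order with smaller values, −0.23 and −0.30 under 40% GC and 0.17 and 0.31 at 50% or more. Across the 49 members, Spearman's rho between GC content and departure was 0.82 in shNC and 0.81 in shACAT2, against 0.55 and 0.62 across all genes tested. It was 0.78 and 0.77 across the other mitotic genes and 0.63 and 0.75 across the DNA replication genes, so the relation was not particular to the members. These are descriptions from the same libraries.

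Exon length moved with it too. The 17 members of at least 5000 bases had median departures of −0.40 in shNC and −0.62 in shACAT2, against 0.012 and −0.051 for all genes tested of that length. The 13 members under 3000 bases had medians of 0.22 and 0.31, against 0.11 and 0.20. Spearman's rho with length was −0.65 and −0.76 across members, against −0.20 and −0.26 across all genes tested. It was −0.37 and −0.43 across the other mitotic genes and 0.060 and −0.25 across the DNA replication genes. Length and GC content were themselves related among the members (Spearman's rho −0.47), so their relations to the departure overlap there. Between length and GC content, rho was −0.076 across the other mitotic genes and 0.15 across the DNA replication genes. How far each goes with the departure apart from the other was not tested. MKI67, the longest member at 12807 bases, had 48.3% GC and yet departed by as much as the AT-rich genes. What made the number 1 libraries depart was not tested.

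**Figure D5:**
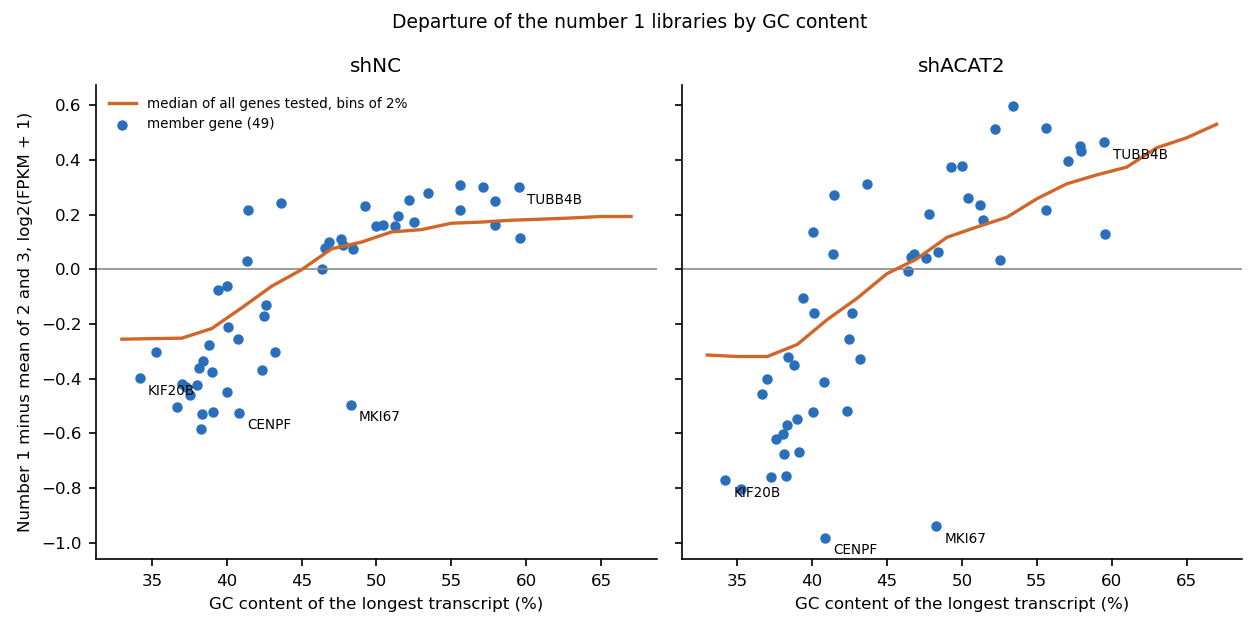
Departure of the number 1 library, on the log2(FPKM + 1) scale, against the GC content of the longest transcript for the 49 members (blue points) in shNC and shACAT2, with the median of all genes tested in bins of 2% GC as an orange line. The members follow the rise of the line, with values below it at low GC and MKI67 far below it at 48.3% GC.

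Since the number 1 libraries of both groups deviated together, the comparison was repeated with the replicate number as a block. The block compares each knockdown library with the control library of its own number. Deviations of numbers 2 and 3 correlated at 0.126 and 0.171 with their own number and at 0.198 and 0.141 with the other. How numbers 2 and 3 pair is therefore not shown by the values, and the calls with the block depend on it. The median SE of the members fell from 0.150 to 0.0716. With the block, 4 members were higher at an adjusted p of 0.05, against 7.67% of all genes tested, and 3 were lower, against 4.81%. The higher ones were HMMR (adjusted p = 0.0254), BUB3 (0.0364), CKS2 (0.0423) and PTTG1 (0.0474), and the lower ones CKS1B (0.00972), BUB1B (0.0446) and MKI67 (0.0493). Their log2 fold changes were those given above, since the block changes only the error. The 7 members made up 14.3% of those tested, against 12.5% of all genes tested that were called with the block. Taken by number, 25 members were higher in shACAT2 in all 3 matched differences, against 30.1% of all genes tested, and 11 were lower in all 3, against 27.1%, so that 73.5% of the members and 57.2% of all genes went 1 way.

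Without the number 1 libraries, 2 libraries a group were left. Of the 49 members, 1 was then higher with limma (HMMR, adjusted p = 0.0477), against 2.95% of all genes tested, and 1 lower (CKS1B, adjusted p = 0.0291), against 1.39%. The median SE was 0.0720. The log2 fold change of CENPF moved from −0.23 to −0.077 and that of MKI67 from −0.59 to −0.44 (adjusted p = 0.0819), while those of CKS1B (−1.19) and CKS2 (0.34) hardly moved.

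With a running trend on GC content taken out of each library, an alternative chosen after seeing the data, the SD over members of the departure fell from 0.29 to 0.18 in shNC and from 0.45 to 0.31 in shACAT2. MKI67 then departed most, by −0.58 and −1.02. At an adjusted p of 0.05, 3 members were higher (PLK1, HMMR and CDCA3), against 9.29% of all genes tested, and 2 lower (BUB1B and CKS1B), against 7.22%, or 10.2% of the members against 16.5% of all genes. With the trend removed and the block, 7 were higher, against 11.3%, and 3 lower, against 9.33%, or 20.4% of the members against 20.6% of all genes.

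Genes of the same processes outside the list were read beside it. Of 101 other mitotic genes, 99 were tested, and 2 were higher and 0 lower with limma (2.02% in all, against 5.10% of all genes tested). At an unadjusted p below 0.05, 11 were higher and 9 lower (20.2%, against 23.5%), and with limma-voom 1 and 4 (5.05%, against 8.44%). RHOA, the GTPase that drives the contractile ring, rose from 137, 115 and 113 FPKM to 235, 188 and 222 FPKM (log2 fold change 0.82, SE 0.137, adjusted p = 0.0245). OIP5, which takes part in loading CENPA onto centromeres, rose from 8.46, 6.84 and 7.84 FPKM to 11.2, 10.9 and 12.1 FPKM (log2 fold change 0.51, SE 0.104, adjusted p = 0.0409). Both exceed the spread between libraries, but the adjusted p of RHOA exceeded 0.05 without any 1 of shNC-1, shNC-2, shNC-3 and shACAT2-2 (up to 0.138), and that of OIP5 without any 1 of these or shACAT2-3 (up to 0.188). OIP5 also missed the threshold with limma-voom (0.0641), with either other scaling (0.0537 and 0.05003), with no filter (0.113) and without both number 1 libraries (0.0586), and RHOA with no filter (0.0945). With the block, 5 of the 99 were higher and 7 lower (12.1%, against 12.5%). Their median log2 fold change was 0.035.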

How the data were processed

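RNA of 6 HGC-27 libraries, 3 shNC and 3 shACAT2, was sequenced, and groups and numbers were taken from the sample titles. The authors deposited 1 table of 58735 genes whose header names no unit. Each deposited value times gene length was a whole multiple of 1 step per library (100% within 0.1), so the values were read as FPKM. Gene lengths and ends equalled GENCODE release 29 for all genes. The submitters' processing notes name HISAT2 2.0.5, featureCounts 1.5.0-p3 and hg38, with no strand setting. The members tested had at least 153 fragments in every library, and how far depth limited their precision was not tested.

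limma 3.58.1 (R 4.3.3, with trend) was fitted to log2(FPKM + 1), which understates changes of low genes, over the 13832 genes that averaged 1 FPKM or more in shNC or in shACAT2, with Benjamini-Hochberg adjustment over all of them. It was tested on simulated data. Python 3.11.15 with pandas 2.3.3 did the rest. The members, the other gene lists and the tests were chosen with earlier results of these data known. Named were ACAT2, members past an adjusted p of 0.05, the most abundant member of each role, the 4 members with the highest and the 4 with the lowest number 1 departure, MKI67 and the called genes of the other lists. Other genes were named after their values were seen.

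Deviations from the group means of libraries with the same number correlated at 0.445, 0.126 and 0.171. All exceeded 0.1, so libraries were paired by number, although shNC-2 with shACAT2-3 reached 0.198 and shNC-3 with shACAT2-2 reached 0.141. A departure of number 1 in both groups by itself raises the correlations among numbers 2 and 3. Passing 0.1 therefore does not show how numbers 2 and 3 pair. shNC-2 and shNC-3 differed by a chi-square per gene of 1.71, above sampling noise, against 10.8 to 39.3 for other pairs within groups, and were kept as 2 samples. Alternatives were 2 other scalings, a pseudocount of 0.1, no filter, a minimum of 10 fragments per library, limma-voom on the recovered fragments, the block, each library left out, both number 1 libraries left out, the average of shNC-2 with shNC-3, and the study's thresholds (unadjusted p below 0.05 and absolute log2 fold change above 1). Removing the GC trend was added after seeing the data. A planned search of protein sequences was not run.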

Additional observations from a re-analysis of the deposited data

How the results depend on the processing

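With the replicate block, 4 members were higher and 3 lower (14.3%, against 12.5% of all genes tested). Without the block, these were 0 and 1 (2.04%, against 5.10%). Without both number 1 libraries, 1 was higher and 1 lower (4.08%, against 4.47%). With the GC trend removed, 3 were higher and 2 lower (10.2%, against 16.5%), and with the block as well 7 and 3 (20.4%, against 20.6%). Averaging shNC-2 with shNC-3, and leaving out shNC-3, each left 0 lower. Averaging called 63 genes higher and 20 lower of 13838 tested, and leaving out shNC-3 called 49 and 14 of 13882. The fit to all 6 libraries without the block called 456 and 250 of 13832. With 1 library left out in turn, 0 members were higher and 0 to 1 lower. Over all genes tested, the ranges were 49 to 523 and 14 to 339. The members' median log2 fold change was 0.0231 with scaling to fragments on genes, 0.0236 with limma-voom, 0.0358 with the GC trend removed, with or without the block, and 0.0238 to 0.114 with 1 library left out, and it stayed above 0. The SD of the number 1 departure was 0.185 in shNC and 0.306 in shACAT2 with the GC trend removed, and moved little under the other scalings, filters and pseudocount.

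Among 20 named genes, 6 members far from the threshold changed sign under some alternative. With 1 library left out, the log2 fold change ran from −0.026 to 0.30 for ANLN, −0.14 to 0.31 for KIF14, −0.19 to 0.21 for TOP2A, −0.40 to 0.10 for CENPF, −0.0063 to 0.27 for TUBB4B and −0.28 to 0.12 for SMC4. Without changing sign, it ran from −0.80 to −0.28 for MKI67, −0.57 to −0.16 for SPC24, 0.025 to 0.31 for BIRC5, −0.29 to −0.0074 for AURKB and 0.11 to 0.38 for CDC20. For TOP2A it was 0.036 without both number 1 libraries and 0.074 after averaging shNC-2 with shNC-3. Of 340 values of the named genes under the alternatives, 289 kept their direction and their side of the threshold, 34 lost the threshold (RHOA, OIP5, PCNA, POLE, CKS1B and ACAT2) and 5 gained it (CKS2, MKI67 and CDC20). The causes were not tested. With 3 libraries a group, a median SE of 0.150 limits what could be called.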

Other observations

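Genes of DNA replication, the S phase counterpart of the mitotic members, had mostly negative log2 fold changes. All 30 DNA replication genes examined, among them the helicase, polymerase and clamp loader subunits, were tested. Their median log2 fold change in shACAT2 was −0.16, against 0.074 for the mitotic members and 0.016 for all genes tested, and 7 of the 30 had a positive value, against 31 of 49. With limma, PCNA, the sliding clamp of the polymerases, rose from 88.3, 87.5 and 85.3 FPKM to 155, 133 and 135 FPKM (log2 fold change 0.68, SE 0.108, adjusted p = 0.0208). POLE, the catalytic subunit of the leading-strand polymerase, fell from 10.4, 9.50 and 9.60 FPKM to 6.91, 6.94 and 7.15 FPKM (log2 fold change −0.43, SE 0.0836, adjusted p = 0.0348). The other 28 did not pass the test, so that 6.67% were called, against 5.10% of all genes tested. At an unadjusted p below 0.05, 1 was higher and 5 were lower (20%, against 23.5%). With limma-voom 1 was higher and 3 lower (13.3%, against 8.44%), and without both number 1 libraries 1 and 0 (3.33%, against 4.47%). With the replicate block 1 was higher and 3 lower (13.3%, against 12.5% of all genes tested), with the GC trend removed 1 and 6 (23.3%, against 16.5%), and with both 1 and 10 (36.7%, against 20.6%). For all 3 number-matched differences, 20 of the 30 were lower in shACAT2, against 27.1% of all genes tested, and 2 were higher, against 30.1%. The adjusted p of PCNA exceeded 0.05 without any 1 of shNC-1, shNC-2, shNC-3 and shACAT2-2 (up to 0.136), and that of POLE without any 1 of these or shACAT2-3 (up to 0.163). The difference between the replication genes and the mitotic members was not tested.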
